A study of Mus musculus with 4 samples.

Results

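Flag-tagged Lin28b in a form described as deficient in RNA binding still gave an immunoprecipitate (IP) with called peaks, and the set described here is the mutant peaks inside protein-coding genes that had no counterpart in the wild-type IP. A peak belonged to the set where it shared no base on the same strand with any wild-type peak and where its summit, the base of highest signal, lay inside a protein-coding gene of the mutant gene table on that strand. This left 9565 peaks of the 15931 in the mutant list, in 1805 genes, and they are called mutant-only peaks below. The wild-type list held 11912 peaks, so the lists together held 27843. The members were chosen by the authors' called peaks in the mutant and wild-type IPs, and every count, width, fold and position of them is therefore a description without a test.

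The study sequenced RNA recovered with an anti-Flag antibody from the mouse line 15376CAFs, described as cancer-associated fibroblasts (CAFs), the main stromal cells of pancreatic tumours, made to overexpress the protein. There were 4 libraries in groups of 1: the IP and the input of cells carrying Flag-Lin28b-WT, and the IP and the input of cells carrying Flag-Lin28b-MU, the form deficient in RNA binding. All 4 share the cell label and a Flag-tagged Lin28b construct, the labels give no genotype, treatment or time, and no library of untagged cells or of another antibody was analysed here. No group has a replicate, so no difference in this text has a replicate check, and all intervals are 95% intervals for counting error only (exact Clopper-Pearson for shares, order statistics for medians).

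Of the 14 fibroblast markers, 6 were listed in both gene tables. Vim (547 FPKM in the mutant input, 607 in the wild-type input), Sparc and Fn1 carried most of their summed level, which was 708 and 820, whereas Pdgfra, Acta2 and Col1a1 stayed under 1.4 in each input. Of the 10 epithelial markers 7 were listed, with a summed level of 1413 in the mutant input and 2081 in the wild-type input, led by Krt8 (494 and 601), Krt18 and Krt19. Krt7 stood at 3.32 and 31.7 in the same inputs and Muc1 at 6.77 and 134, both far lower in the mutant input. Cdh1 stood at 114 and 219, and Elf3 at 32.5 and 34.9. Of 8 leukocyte markers only Cd68 was listed in both tables, and of the 5 endothelial and 5 acinar markers none was. The defining fibroblast collagen was thus near 0 while Krt8, Krt18 and Krt19 were abundant in each input, which goes against the label. The inputs were not alike in the other epithelial markers, and the cells are called CAFs here only as labelled. The part of this in the peaks was not tested.

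Lin28b is an RNA-binding protein of stem and fetal cells that is switched back on in many tumours. It is best known for holding back the microRNA family let-7: its cold-shock domain grips the loop of the let-7 precursor, and its pair of zinc knuckles recognises a GGAG motif beside it. It also binds many messenger RNAs, so an RNA-binding-deficient form serves as the comparison for what the protein, the tag and the beads recover otherwise.

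Since let-7 precursors are the textbook ligands of Lin28b, the microRNA hairpins that lay wholly inside mutant-only peaks are shown first, with each GGAG in capitals. There were 7 (0.0732 per 100 peaks), with 6 in mutant peaks that overlapped a wild-type peak (0.107 per 100) and 3 in wild-type-only peaks (0.0530 per 100). No let-7 hairpin was among the 7. The rule admits only peaks with a summit in a protein-coding gene, and the let-7 hairpins that could have entered were not counted. Nothing is therefore read from their absence. Sequences and coordinates are from RefSeq on GRCm38.p6, written 5′ to 3′ on the transcribed strand.
Mir6896 in Dst, chr1:34117359-34117431, plus strand: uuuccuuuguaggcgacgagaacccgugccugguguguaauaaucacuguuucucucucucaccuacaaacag
Mir6897 in Uggt1, chr1:36144252-36144313, minus strand: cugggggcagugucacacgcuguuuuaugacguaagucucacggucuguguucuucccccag
Mir6997 in Sptan1, chr2:29995950-29996020, plus strand: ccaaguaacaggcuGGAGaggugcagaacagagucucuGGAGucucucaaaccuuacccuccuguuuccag
Mir3094 in Nfx1, chr4:40993695-40993758, plus strand: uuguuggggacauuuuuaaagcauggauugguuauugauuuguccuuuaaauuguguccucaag
Mir7026 in Ep400, chr5:110666075-110666141, minus strand: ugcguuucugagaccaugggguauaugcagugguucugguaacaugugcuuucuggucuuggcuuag
Mir7661 in Itpr1, chr6:108489743-108489803, plus strand: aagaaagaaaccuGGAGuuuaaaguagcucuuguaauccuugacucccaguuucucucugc
Mir7073 in Cnot1, chr8:95753151-95753214, minus strand: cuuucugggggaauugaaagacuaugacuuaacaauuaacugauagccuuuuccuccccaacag

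The letters GGAG, searched on the transcribed strand, occurred in 2 of these 7 hairpins and in 447 of the 1005 mouse hairpins of the table (44.5%). A match describes the letters only. The host peaks ranged in the authors' fold from 3.28 (Ep400) to 9.03 (Dst) and in width from 207 bases (Cnot1) to 1043 bases (Sptan1). The summit was not always on the hairpin. Counted from the hairpin's 5′ end, it lay at base 800 for Mir6997 (71 bases long), 279 for Mir3094 (64 bases) and 77 for Mir7026 (67 bases). In these peaks the summit was thus past the hairpin's 3′ end. The peak over Mir7073 in Cnot1, a scaffold of the deadenylase complex, lay 144 bases from the nearest wild-type peak. That over Mir7661 in Itpr1, a calcium release channel, lay 60520 bases from one.

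A few mutant-only peaks lay at or close to a RefSeq transcription start of their gene. The 30 bases around the summit are shown for 4 of those with a high fold. These summits lay before the RefSeq start, by 102 bases in Nf1, 131 in Trip12, 57 in Kirrel and 15 in Utrn. The start in Utrn lies inside the span used for positions below. Sequences are from RefSeq on GRCm38.p6, in the direction of transcription, with any GGAG in capitals.
Nf1, chr11:79339776-79339805, plus strand: cccctccccacccctcccccagtctcctcg
Trip12, chr1:84839420-84839449, minus strand: cggccgaaccctcaggacaaagtagtccgc
Kirrel, chr3:87174579-87174608, minus strand: aaattattagggggcgcgggacgagaGGAG
Utrn, chr10:12861735-12861764, minus strand: ctactcaatactttctcttttcctgttagg

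Their folds were 14.0 in Nf1 (a Ras GTPase activator), 13.9 in Trip12 (a ubiquitin ligase), 12.6 in Kirrel and 10.8 in Utrn (utrophin). Over the whole set, 136 of 9565 peaks (1.42%, interval 1.19% to 1.68%) touched the window from 250 bases before to 50 bases after a RefSeq start of their own gene. The shares were 0.693% in mutant peaks shared with the wild type and 0.654% in wild-type-only peaks. The summit itself lay in that window for 34 mutant-only peaks. GGAG stood on the transcribed strand of 29 of these 34 windows (85.3%), against 83.7% of all 32817 windows in the table, and the longer GGAGA, which contains GGAG, in 13 (38.2%) against 39.8%. In these 300-base windows the motif was thus about as frequent as at any start.

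Most mutant-only peaks were short and lay in the body of long genes. Position was taken along the genomic span from the 5′ end (0) to the 3′ end (1), introns included; exons and UTRs were not assigned here. The median summit position was 0.713 (interval 0.704 to 0.722), against 0.791 for the 5625 mutant peaks in coding genes that overlapped a wild-type peak (shared peaks) and 0.814 for the 5658 wild-type-only coding peaks. The last decile of the gene, the final 10% of its span, held 2402 mutant-only summits (25.1%, interval 24.2% to 26.0%), 37.4% of shared summits and 36.8% of wild-type-only summits. The first decile held 406 (4.24%, interval 3.85% to 4.67%), against 2.01% and 2.09%. In bases, 5.55% of mutant-only summits were within 1000 bases of the gene's 3′ end, against 12.2% of shared and 18.1% of wild-type-only summits. Gene length differs between the sets, and these shares were not adjusted for it. Of the wild-type-only peaks, 4744 were in genes without a mutant-only peak. Those genes had a median span of 19.2 kb, against 64.8 kb for genes with such a peak, and 1000 bases is a larger part of a short gene.

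**Figure D1:**
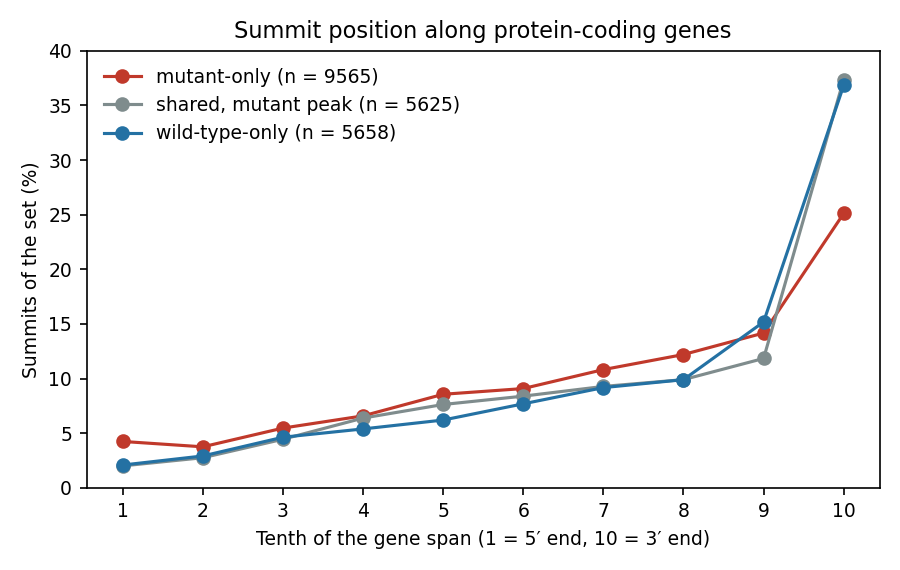
Percent of the summits of each set (vertical axis) in each decile of the gene span, from the 5′ end (1) to the 3′ end (10), for mutant-only, shared and wild-type-only peaks in protein-coding genes. All 3 lines climb towards the 3′ end, and the mutant-only line ends at 25.1% where the other two end at 37.4% and 36.8%.

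The median width was 237 bases (interval 235 to 239), with the middle 50% between 207 and 335 and a shortest peak of 200 bases in each set. Wild-type-only peaks had the same median, 237, and shared mutant peaks a median of 312. Widths up to 300 bases made up 69.4% of mutant-only, 65.1% of wild-type-only and 47.6% of shared peaks. Peaks over 1000 bases numbered 253 (2.65%), against 10.95% of shared and 3.09% of wild-type-only peaks. A wider peak more readily shares a base with a peak of the other list, so the rule itself tends to make shared peaks the wider ones.

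The authors' fold is their peak caller's enrichment at the summit, and each fold of a peak here is their own value. It had a median of 4.18 (interval 4.12 to 4.25) in mutant-only peaks, with a range from 1.25 to 34.1, against medians of 4.22 in shared and 3.77 in wild-type-only peaks. A fold of 10 or more was reached by 620 mutant-only peaks (6.48%), 9.71% of shared and 5.04% of wild-type-only peaks. Folds from lists that were called separately are set side by side as descriptions of each list.

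Position went with width and with fold within the set. The 6635 peaks of 200 to 300 bases had a median fold of 4.68, a median position of 0.668 and 17.98% of their summits in the last decile. The 253 peaks over 1000 bases had a median fold of 3.13, a median position of 0.940 and 58.1% in the last decile. Divided by fold, the 5948 peaks under 5 had 32.2% of summits in the last decile, the 2997 between 5 and 10 had 14.4%, and the 620 at 10 or more had 9.19%. Summits thus lay in the last decile more often in broad peaks and less often in peaks of high fold. Median widths in the fold classes, from lowest to highest, were 244, 229 and 252 bases, so high peaks were not narrower as a class.

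**Figure D2:**
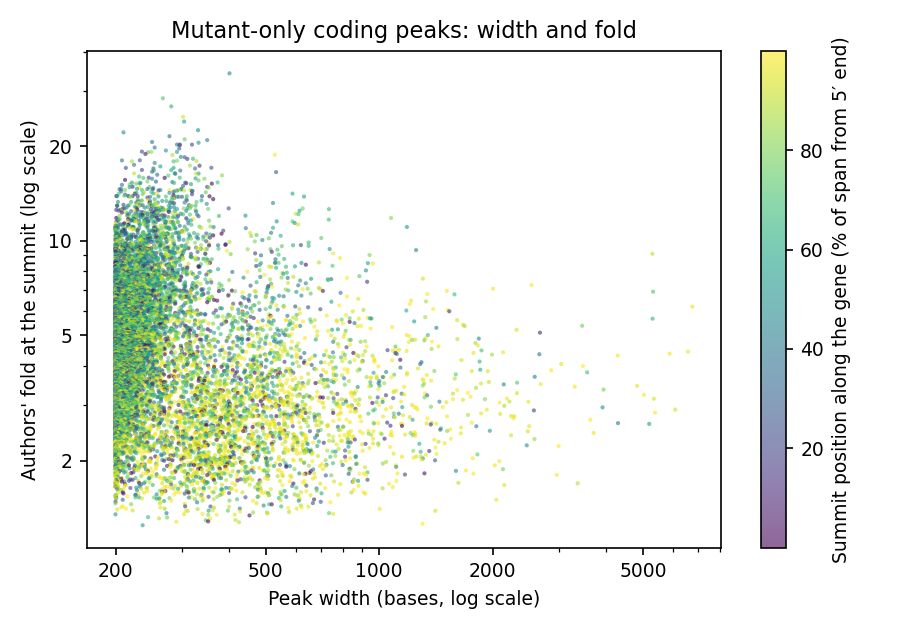
Width in bases against the authors' fold, both on log scales, for each of the 9565 mutant-only peaks, coloured by summit position in percent of the gene span. The highest folds, up to 34.1, are at widths near 200 to 400 bases, and the broadest peaks, up to 6758 bases, are mostly coloured as lying close to the 3′ end.

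The 5 broadest peaks all lay in the last decile of their gene. Zfp704 (6758 bases, chr3:9432294-9439051, minus strand, fold 6.18, at 96.3% of the span) and Zbtb20 (6583 bases, chr16:43619297-43625879, plus strand, fold 4.44, at 97.7%) encode zinc finger proteins. Sh3pxd2b encodes a podosome scaffold (6090 bases), Ptpn14 a tyrosine phosphatase (5886 bases) and Lcor a nuclear receptor corepressor (5384 bases), with folds of 2.90, 4.38 and 2.84 at 92.8%, 97.5% and 99.1% of their spans. In Zfp704 the inputs were far apart: 49.3 FPKM in the mutant IP and 14.96 in its input, but 1.39 in the wild-type IP and 1.15 in its input. The part of this difference in the peak's absence from the wild-type list was not tested.

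The highest fold in the set was in Atm (ENSMUSG00000034218, chr9:53439149-53536740, minus strand), the kinase that signals DNA double-strand breaks. Its peak chr9:53493058-53493458 was 401 bases wide with a fold of 34.1 and sat at 44.6% of the span, 2593 bases from the nearest wild-type peak. Atm supplied 5 of the 15 highest folds, the others being 24.8, 24.0, 22.5 and 20.2. Next came Macf1, a crosslinker of actin and microtubules (28.4, chr4:123439448-123439714, minus strand), and Lyst, a regulator of lysosome size (26.8, chr13:13712549-13712829, plus strand). The remaining 8 were in Vps13c (21.5), Syne2 (21.0 and 20.1), Dmxl1 (20.9), Smg1 (20.6), Mycbp2 (20.5), Nbea (20.2) and Syne1 (20.2). All 15 were between 250 and 401 bases wide, and only the 24.8-fold peak in Atm was in the last decile of its gene.

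Carrying at least 1 mutant-only peak was true of 1805 of the 11748 protein-coding genes of the mutant table, a background of 15.4%. Among the carriers 599 (33.2%) held 1 peak, 606 held 2 to 4, 360 held 5 to 9, 159 held 10 to 19 and 81 (4.49%) held 20 or more. The median was 3 peaks and the highest count 118. Peaks were concentrated: the 600 genes with 5 or more, 5.11% of all coding genes, held 7312 peaks (76.4%), and the 81 genes with 20 or more held 2803 (29.3%). Neighbouring mutant-only summits in a gene were a median of 2838 bases apart over 7760 pairs, with the middle 50% from 1253 to 7444 and none closer than 245. Genes with 5 or more peaks held a median of 1.13 peaks per 10 kb.

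The long genes carried most of the peaks. Of the 2350 genes in the longest quintile of spans (at least 65892 bases), 37.8% carried a mutant-only peak, against 1.23% in the shortest quintile (up to 8216 bases). Median span was 64.8 kb for carriers and 19.2 kb for other coding genes. By level in the mutant IP, which also gave the peaks, the share climbed from 0.340% in the lowest quintile to 40% in the highest. By level in the mutant input it was 2.64% in the lowest quintile, 14.4%, 21.2% and 22.1% in the middle ones and 16.5% in the highest, so the most abundant transcripts in the input were not the most frequent carriers. Across chromosomes the share of carriers ran from 10.7% on chromosome 7 to 21.4% on chromosome 1, and none of the 13 mitochondrially encoded genes carried one.

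**Figure D3:**
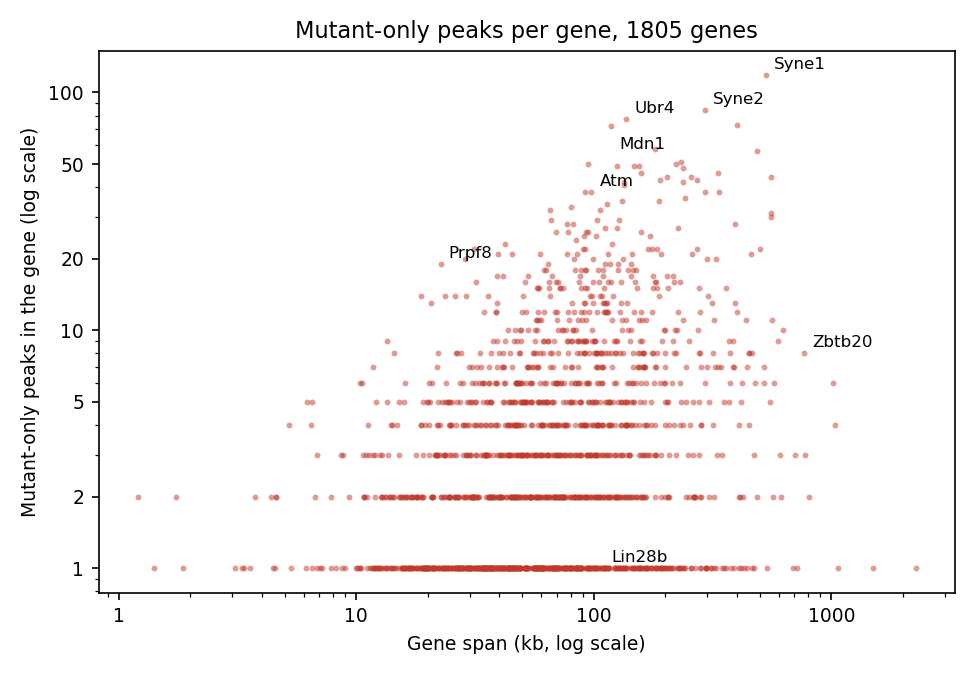
Number of mutant-only peaks in a gene against its genomic span in kb, both on log scales, 1 point for each of the 1805 carrying genes. The counts climb with span up to Syne1 with 118 peaks, while Prpf8 holds 19 in a short span and Zbtb20 holds 8 in a long one.

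The number of peaks in a gene went with where and how high they were. Lone peaks had a median position of 0.818, 40.7% in the last decile and a median fold of 3.09. In genes with 20 or more peaks, the median position was 0.631, 14.3% were in the last decile and the median fold was 6.09. Widths differed little between these classes, with medians from 227 to 242 bases.

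The wild-type IP was not empty in these genes. A wild-type peak touched the span of 1073 carriers (59.4%, interval 57.1% to 61.7%), against 28.3% of all coding genes, and 950 carriers also held a shared peak. Of the 81 genes with 20 or more mutant-only peaks, 67 (82.7%) held a wild-type peak. In those 81 genes the mutant list had 2803 mutant-only and 738 shared peaks, and the wild-type list had 770 peaks shared with the mutant and 9 of its own. In genes with 1 mutant-only peak the wild-type list had 633 shared peaks and 468 of its own. The median distance from a mutant-only peak to the nearest wild-type peak on its strand was 13103 bases, with 1063 (11.1%) within 1000 bases and 4365 (45.6%) within 10000. At the edge of the rule, the members nearest to a wild-type peak lay 47 bases away in Zfp942, 58 in Itsn2 and 70 in Zfp974, and the mutant peaks that just failed it overlapped one by 4 bases in Chd9, 4 in Tbc1d23 and 5 in Fchsd2. Only 6 members overlapped a wild-type peak on the opposite strand, and 59 lay inside more than 1 coding gene, so that their gene is uncertain.

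In the 950 genes that held both kinds of mutant peak, the kinds can be set side by side within a gene. The per-gene median position was 0.710 for mutant-only and 0.846 for shared peaks, and shared peaks lay nearer the 3′ end in 632 genes (66.5%). Shared peaks were wider in 783 genes (82.4%), with medians of 366.5 and 232 bases. A wider peak is more likely to count as shared under the rule, so this difference is partly built in. Broad mutant-only peaks also lay more often near the 3′ end, so the difference in position is not independent of the rule either. Fold differed less: shared peaks were higher in 519 of the 950 (54.6%), with medians of 3.81 and 3.63.

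Gene-level recovery was read from the levels in the 4 libraries, as the log2 ratio of IP over input within a construct. The unit is read as FPKM, from the values, and the tables of the constructs were normalised separately. The median mutant ratio of carriers listed in both tables was 0.68, against -0.49 for all such coding genes; the median wild-type ratio was 0.24, against -0.25. A level at least 2-fold above input with the authors' q-value under 0.05 was called enriched. In the mutant IP 481 carriers (26.6%) were enriched, against 5.81% of all coding genes, and 11 (0.609%) were at least 2-fold below input, against 32.6%. In the wild-type IP 160 carriers (8.89%, interval 7.62% to 10.3%) were enriched, against 6.70% of all coding genes in both tables, and 28 (1.56%) were below input, against 18.4%. Both IPs were enriched in 121 carriers (6.73%), against 1.71% of all coding genes in both tables. With each table's ratios centred on its median, the enriched shares became 74.0% of carriers and 17.6% of all coding genes in the mutant IP, and 20.6% and 12.5% in the wild-type IP. The peaks of these IPs chose the carriers, so nothing is read from these counts.

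The median mutant ratio climbed with the number of mutant-only peaks, from 0.37 in genes with 1, through 0.65, 0.89 and 1.08, to 1.50 in genes with 20 or more. The wild-type medians in the same classes were 0.19, 0.25, 0.19, 0.31 and 0.47. The ratio was higher in the mutant than in the wild type in all 81 genes with 20 or more peaks, in 84.4% of carriers and in 38.0% of all coding genes in both tables. Enrichment in the mutant IP was called for 74 of the 81 (91.4%), against 10 (12.3%) in the wild-type IP. The peaks that placed genes in these classes come from the same IPs as the ratios, so this too is a description.

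**Figure D4:**
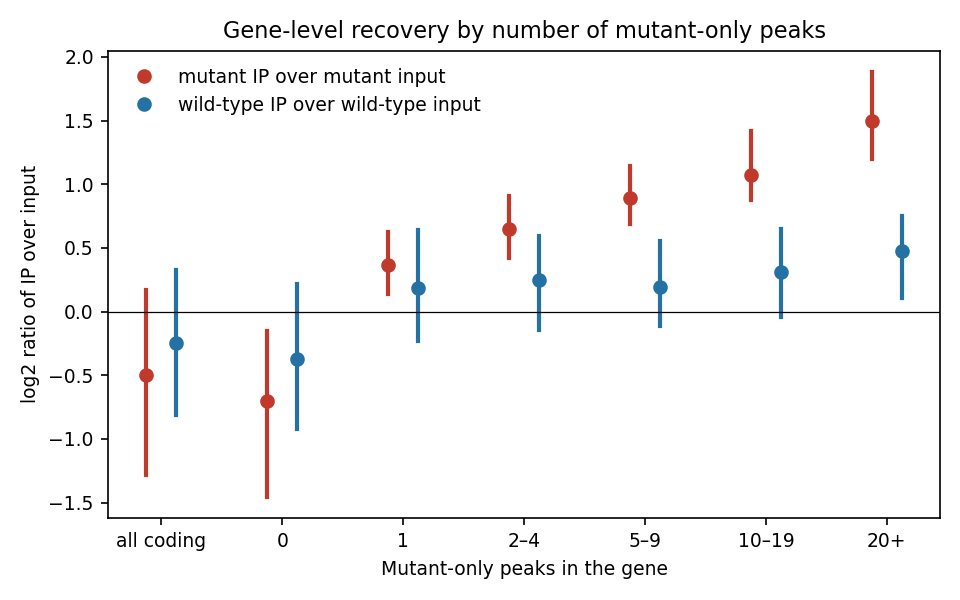
Median log2 ratio of IP over input (points) with the middle 50% of genes (bars) for the mutant and the wild type, over all protein-coding genes in both tables and by the number of mutant-only peaks in the gene. The mutant medians climb from 0.37 at 1 peak to 1.50 at 20 or more, while the wild-type medians lie between 0.19 and 0.47.

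The inputs of carriers were mostly alike. The input of the mutant exceeded that of the wild type by 2-fold or more in 124 carriers (6.89%, interval 5.77% to 8.16%), near the 7.10% of all coding genes, and the wild-type input was the higher in 39 (2.17%), against 7.16%. The 732 carriers with no wild-type peak anywhere in their span held 2774 mutant-only peaks. Among them the mutant input was 2-fold or more higher in 80 of the 726 in both tables (11.02%, interval 8.83% to 13.5%), against 44 of the 1073 that held a wild-type peak (4.10%, interval 2.995% to 5.47%). A missing wild-type peak depends on the wild-type level itself, so this split is not independent of the inputs. In the genes without a wild-type peak the median ratios were 0.49 in the mutant and -0.17 in the wild type, and 12 (1.65%) were enriched in the wild-type IP. Counting only genes whose inputs lie within 2-fold of each other leaves 8783 peaks in 1636 genes.

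Giant linkers of the cytoskeleton and nuclear envelope held the most mutant-only peaks of any list examined: 19 of the 21 measured (90.5%) carried 574 peaks, against the background of 15.4%. Their median span was 134 kb, in the range where carriers are most frequent, and the part of length in this and the following lists was not tested. The median log2 ratio of the list was 1.34 in the mutant and 0.02 in the wild type, and 16 were enriched in the mutant IP and none in the wild-type IP, where the shares over all coding genes were 5.81% and 6.70%. These shares are the background of the counts of enriched genes in the lists that follow. Syne1 (ENSMUSG00000096054), which links the nuclear envelope to the cytoskeleton, held 118 peaks along 531 kb, between 1.76% and 98.2% of the span, with a median fold of 8.04. Its level was 44.6 FPKM in the mutant IP and 10.95 in the mutant input, and 23.7 in the wild-type IP with 14.5 in its input. The mutant IP was thus 4.07-fold above input and the wild-type IP 1.63-fold, with inputs close together. The related Syne2 held 84 peaks, with levels of 138 and 28.6 in the mutant pair and 37.0 and 25.7 in the wild-type pair. Dst, a spectraplakin, held 73 (188 and 59.3, 64.8 and 56.7), and Macf1, its relative, held 46 beside 39 shared peaks (237 and 51.0, 96.6 and 56.8). In all 4 genes the mutant IP was the highest of the libraries. Utrn, the utrophin that anchors actin to the membrane, held 57 peaks with a median position of 38.7% of its span, nearer the 5′ end than most.

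All 6 PI3K-like kinases, very large protein kinases that respond to damaged DNA or RNA and to nutrients, carried mutant-only peaks, 166 in total, and all 6 also carried shared ones. The list was enriched in the mutant IP in 6 of 6 and in the wild-type IP in 4 of 6, against 5.81% and 6.70% of all coding genes, with median log2 ratios of 2.23 and 1.18. Atm held 38 mutant-only and 18 shared peaks. Its levels were 58.1 FPKM in the mutant IP, 9.95 in the mutant input, 14.7 in the wild-type IP with 6.15 in its input. Prkdc, the catalytic subunit of DNA-dependent protein kinase, held 44 and 21, at 20.6, 3.89, 11.5 and 4.65 in the same order of libraries. Trrap, a histone acetyltransferase scaffold without kinase activity, held 38 and 17, at 99.2, 32.0, 50.4 and 33.7. Smg1, a kinase of nonsense-mediated decay, held 13 mutant-only beside 34 shared peaks, at 126, 27.6, 44.5 and 20.6. Here the IP stood above its own input for each construct, by 5.84-fold and 2.39-fold in Atm and by 4.58-fold and 2.16-fold in Smg1.

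**Figure D5:**
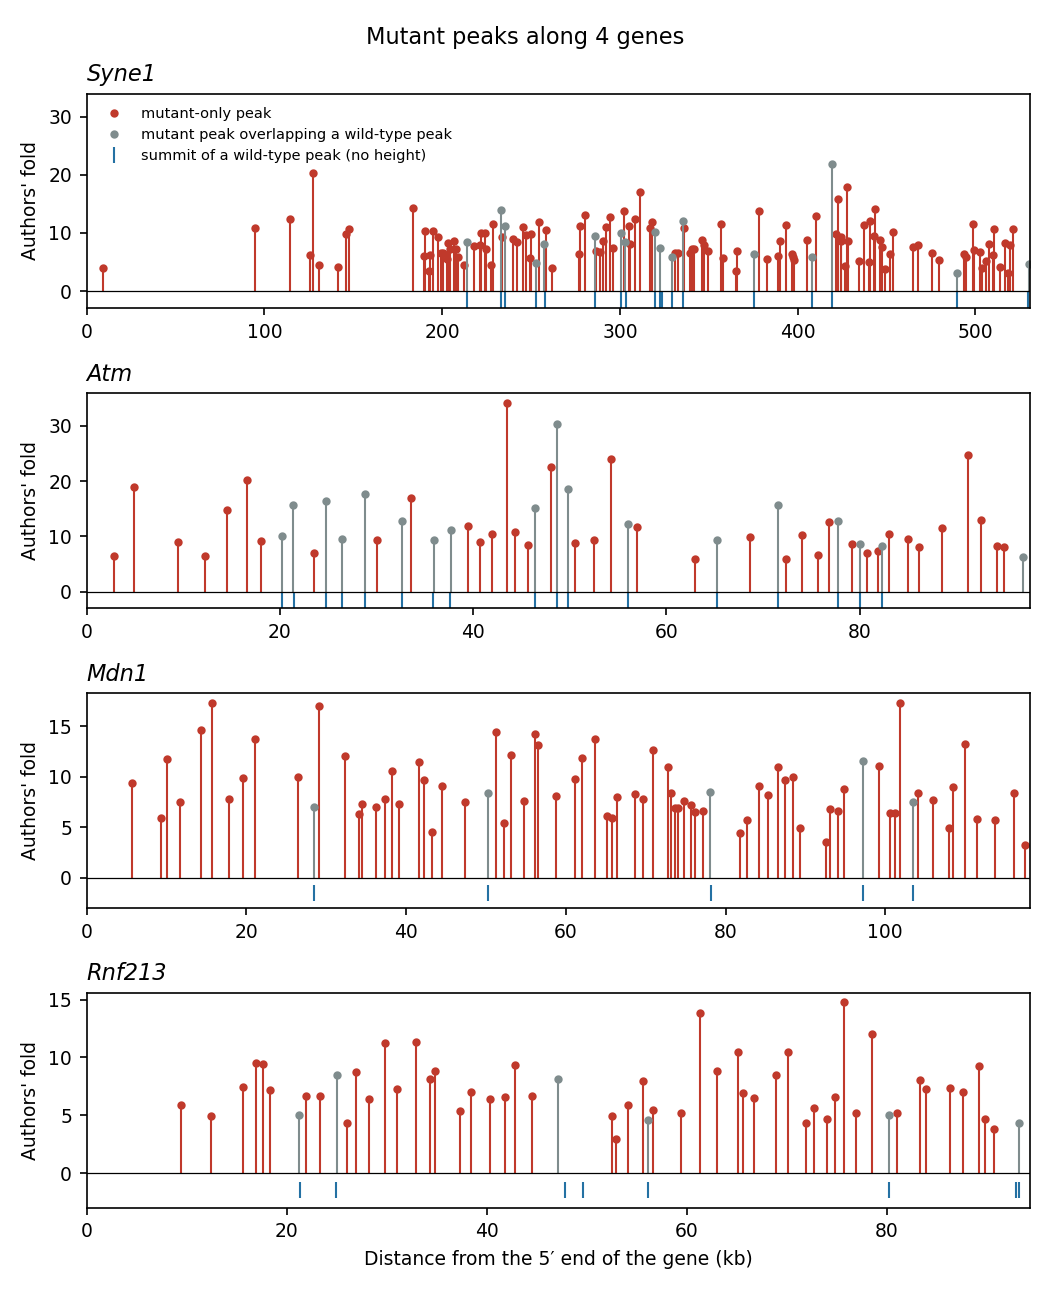
Mutant peaks along Syne1, Atm, Mdn1 and Rnf213, with distance from the 5′ end of the gene in kb on the horizontal axis and the authors' fold on the vertical axis; ticks under the line mark wild-type summits, without height. Mutant-only peaks run along each gene (118, 38, 72 and 50), and wild-type summits mostly coincide with the shared mutant peaks.

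Mdn1, a giant ATPase of ribosome assembly, held 72 mutant-only and 5 shared peaks along 118 kb, 6.10 per 10 kb. They ran from 4.85% to 99.5% of the span, and 7 were in the last decile. Its levels were 32.5 FPKM in the mutant IP and 7.44 in the mutant input, and 7.71 and 4.86 in the wild-type pair. Here the mutant IP stood 4.37-fold above input and the wild-type IP 1.59-fold.

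Of 26 large ubiquitin ligases, enzymes that tag proteins for turnover, 19 (73.1%) carried 521 mutant-only peaks, and each of the 19 also held a wild-type peak. The list was enriched in the mutant IP in 15 and in the wild-type IP in 4, with median log2 ratios of 1.40 and 0.57. Ubr4, an N-degron ligase, held 77 peaks, at 151 FPKM in the mutant IP, 39.96 in its input, 55.6 in the wild-type IP and 43.2 in its input. Herc2 held 58 (55.1, 11.7, 23.4 and 14.2) and Mycbp2 held 51 (52.1, 12.2, 23.1 and 12.997). Across the 3, the mutant IP was 3.77-fold to 4.70-fold above input and the wild-type IP 1.29-fold to 1.78-fold. Hectd4 held 49 beside 1 shared peak. Of 55 deubiquitinases, which remove the tag, 24 (43.6%) carried 156 peaks. Usp24 led with 49 (60.5, 14.1, 15.7 and 9.95), whereas Usp34 held 16 beside 40 shared peaks and stood above input by 3.28-fold and 2.55-fold.

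Rnf213, a ubiquitin ligase induced by interferon, held 50 mutant-only peaks but at levels that already differed between the 2 input libraries. The level was 465 FPKM in the mutant IP, 127 in the mutant input, 17.0 in the wild-type IP with 11.4 in its input, so the inputs differed by 11.2-fold. Of the 45 interferon-stimulated genes in both tables, the mutant input was the higher by 2-fold or more in 43. The share over all coding genes in both tables was 7.10%. Of the 47 measured in the mutant table, 17 (36.2%) carried 112 mutant-only peaks, and 12 of those 17 had no wild-type peak, against 40.6% of all carriers. Ifih1, a sensor of double-stranded RNA, held 14 (41.3 and 21.1 in the mutant pair, 2.31 and 1.64 in the wild-type pair), and Parp14 held 12 (45.6 and 28.2, 1.71 and 1.51). The list's median log2 ratios were -0.34 in the mutant and -0.20 in the wild type, and 3 of its genes were enriched in each IP. The part of the higher mutant input in these peaks was not tested.

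Other carriers with a mutant input at least 2-fold higher, chosen after their values were seen, were Nbea (44 peaks, 2.22-fold), Itpr1 (38, 2.58-fold), Utp20 (33, 2.10-fold), Itpr2 (28, 3.18-fold), Myh10 (27, 3.51-fold) and Ptpn13 (25, 3.28-fold). Ddx60, an interferon-induced helicase, stood furthest apart of the 10 such carriers with the most peaks: 15 mutant-only peaks, no wild-type peak and inputs of 10.6 and 0.169 FPKM, a 59.5-fold difference. In each of these genes the mutant IP was also above its own input.

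Lipid-transfer proteins of the VPS13 and bridge-like type, which carry lipids between membranes, were carriers in 9 of 10 (90.0%) with 229 peaks. Their median log2 ratios were 1.46 in the mutant and 0.51 in the wild type. Vps13d held 50 peaks, at 32.5 FPKM in the mutant IP, 10.6 in its input, 18.1 in the wild-type IP and 12.6 in its input. Vps13c held 49 (35.0, 10.6, 17.2 and 11.2), and 4932438A13Rik 43 beside 36 shared ones (76.4, 15.9, 38.5 and 22.4). The input levels of the constructs lay close together in Vps13d and Vps13c.

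Motor proteins, which move along actin or microtubules, were carriers in 24 of 34 (70.6%) with 266 peaks, and 11 of the 24 carriers had no wild-type peak, near the 40.6% over all carriers. Dync2h1, the heavy chain of the ciliary dynein, held 44 peaks with a median position of 26.8% of the span, the most 5′ of the genes with 40 or more peaks that are named here, at 11.5, 2.51, 6.38 and 3.002 FPKM. Dync1h1, the cytoplasmic dynein heavy chain, held 32, at 229, 68.8, 74.7 and 63.3. Myo18a, an unconventional myosin, held 29 with no wild-type peak, at 154 in the mutant IP and 58.7 in its input against 59.6 and 58.6 in the wild type. For Myo18a the wild-type IP thus matched its input (1.02-fold) while the mutant IP was 2.63-fold above.

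Myo18a and Cep350 shared the highest count, 29, among genes without a wild-type peak. After them, chosen once their values were seen, came Itpr2 (28), Myh9 (28), Kmt2a (26), Cep250 (23), Brwd1, Pcnt and Tln1 (22 each), Snd1 and Gtf2i (21 each) and Akap13 (20). Myh9, the non-muscle myosin heavy chain, was abundant in each library: 453 FPKM in the mutant IP, 261 in its input, 173 in the wild-type IP and 215 in its input. Tln1, the integrin adaptor talin, stood at 79.7, 38.1, 46.1 and 64.1, above input in the mutant and below it in the wild type. Snd1, a nuclease of RNA silencing, was the exception among these 12, with the mutant IP at 102 and below its input of 115. The wild-type inputs of the 12 genes ran from 1.89 FPKM in Itpr2 to 215 in Myh9.

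Of the centrosome and cilium genes 16 of 41 (39.0%) carried 157 peaks, and 9 of the 16 had no wild-type peak, against 40.6% of all carriers. Cep350, a centrosomal scaffold, stood at 43.5, 17.6, 16.4 and 15.1 FPKM in the mutant IP, mutant input, wild-type IP and wild-type input. Cep250, which tethers centrioles, stood at 42.3, 16.1, 11.4 and 13.7, and Pcnt, the pericentrin scaffold, at 26.9, 13.5, 10.9 and 11.4. For the list as a whole the median log2 ratios were 0.11 and -0.05. These 3 were named for holding the most mutant-only peaks of the list, and the mutant ratio climbs with that count. Nothing is therefore read from their place above the list's median in the mutant.

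Chromatin methyltransferases and remodellers were carriers in 33 of 40 (82.5%) with 347 peaks, and 8 were enriched in the mutant IP. Ep400, a remodeller that exchanges histone variants, held 32 peaks, at 75.3, 36.5, 33.8 and 36.5 FPKM in the same order. Kmt2c, a histone H3 lysine methyltransferase, held 27 beside 17 shared peaks (55.5, 14.7, 31.2 and 17.9). Kmt2a held 26 and no wild-type peak (58.1, 19.7, 14.8 and 15.2). Its highest fold, 9.71, was at chr9:44881016-44881406 on the minus strand, 0.0757% of the way along the span and so at the 5′ end. Of 33 genome stability genes 24 (72.7%) carried 166 peaks, led by Pds5a (26), a cohesin regulator, Pole (16), a DNA polymerase, and Ncapg2 (15), a condensin subunit. Of 28 nuclear pore genes 13 (46.4%) carried 89, led by Nup98 (25).

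Some genes of moderate span were covered densely. Prpf8, the core splicing factor, held 19 mutant-only peaks in 22.6 kb, 8.39 per 10 kb, the highest density among genes with 5 or more peaks. Its levels were 206 FPKM in the mutant IP and 98.5 in its input, and 104 and 96.2 in the wild-type pair. Among the next in density, chosen after their values were seen, were Fasn, the fatty acid synthase (14 peaks, 7.49 per 10 kb), Flnc, a filamin (20, 6.99 per 10 kb), Psmd3, a proteasome subunit (9, 6.70 per 10 kb), and Vcp, a segregase of ubiquitinated proteins (13, 6.33 per 10 kb). Of 37 hnRNP, SR and splicing factors 9 (24.3%) carried 56 peaks, 19 of them in Prpf8 and 16 in Snrnp200, a spliceosomal helicase.

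Receptors and matrix genes were carriers more rarely than the linkers. Of 37 large endocytic and adhesion receptors 16 (43.2%) carried 143 peaks, among them Itga2, an integrin for collagen (20), Fat1, a giant cadherin (19), and Igf2r, the receptor for IGF2 and mannose 6-phosphate (17, no wild-type peak). Of 28 basement membrane and matrix genes 13 (46.4%) carried 54, and 9 of those 13 had no wild-type peak, against 40.6% of all carriers. Col4a1, a basement membrane collagen, held 12, at 93.0 FPKM in the mutant IP, 64.8 in its input, 66.1 in the wild-type IP and 103 in its input. The list's median log2 ratios were 0.13 in the mutant and -0.68 in the wild type. It had 2 genes enriched in the mutant IP and none in the wild-type IP. In the wild-type IP 6 of its 26 genes in both tables were at least 2-fold below input, where the share over all coding genes was 18.4%.

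Short, abundant housekeeping genes hardly took part. Of 80 cytosolic ribosomal protein genes 2 carried a peak: Rpl35a with 2 and Rpl9 with 1, both with processed copies elsewhere in the genome that can share reads, so these are uncertain. Of 77 nuclear oxidative phosphorylation genes only Ndufs1 did (8 peaks), of 78 mitochondrial ribosomal protein genes only Mrpl1 (1 peak), and of 63 replication-dependent histone genes none. These lists had median spans of 3.33, 7.28, 7.90 and 0.530 kb, in the range where carriers are rare, and median mutant log2 ratios of -2.68, -2.76, -2.04 and -2.84. The corresponding wild-type medians were -0.93, -0.90, -0.80 and -1.89. Of 312 Zfp zinc finger genes 42 (13.5%) carried 135 peaks, close to the background of 15.4%, and many Zfp genes have near-identical copies. Of 200 solute carriers 23 (11.5%) did, and of 32 translation initiation factors 4 (12.5%).

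Lin28b itself (ENSMUSG00000063804, chr10:45376620-45486395, minus strand) held 1 mutant-only peak and no wild-type peak. The peak, chr10:45381191-45381546, was 356 bases wide at 95.8% of the span, with a fold of 1.31, close to the lowest fold of the set. The level was 36.7 FPKM in the mutant IP and 30.0 in its input, and 8.99 in the wild-type IP and 13.8 in its input. The listed Lin28b level was thus higher in the mutant input than in the wild-type input, with 1 library each and separate normalisation. Construct and native transcript cannot be told apart in these levels.

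Of 17 let-7 pathway and microRNA machinery genes 10 (58.8%) carried 72 peaks, and 6 were enriched in the mutant IP against 1 in the wild-type IP. Dicer1, which cuts microRNA precursors, held 19 beside 4 shared peaks, at 33.8 FPKM in the mutant IP, 13.9 in its input, 21.5 in the wild-type IP and 16.8 in its input. Tnrc6b, a silencing cofactor, held 16 (43.9, 15.9, 12.4 and 11.5) and Ago2, an Argonaute, 11 (83.4, 28.9, 81.8 and 39.997). Ago2 alone of these 3 stood at least 2-fold above input for each construct, by 2.88-fold and 2.04-fold. Of 27 textbook let-7 targets 6 (22.2%) carried 37 peaks, with 12 each in the growth factor receptors Igf1r and Insr and 6 in Cdk6, a cell-cycle kinase. The list's median log2 ratios were 0.16 in the mutant and 0.04 in the wild type.

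At the extremes of recovery among carriers, Pdik1l, a kinase gene with 1 mutant-only peak of 9.75-fold, had the highest mutant ratio, at 29.2 FPKM against 3.69 in its input (7.89-fold), and 8.62 against 3.93 in the wild type. Atm (5.84-fold), Prkdc (5.28-fold) and Ptpn4 (5.14-fold) were also among the highest. The lowest was Cystm1, at 9.67 against 114 in its input, with 1 peak of 5.25-fold at 64.2% of the span. In Zc3h11a, also among the lowest, overlapping entries share the name and the span, so its levels and its 5 peaks are uncertain. Rnf125, chosen after its values were seen, had 3.35 FPKM in the mutant IP against 0.727 in its input and in the wild type it was listed at 0 in the IP against 0.177 in the input.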

How the data were processed

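RNA was measured in 4 libraries, an IP and an input for each construct, from a stranded mRNA kit per the labels' protocols. The submitters' processing notes name bedtools, HOMER 4.11.1, MACS2 2.2.7.1 and HISAT2 2.1.0, and as builds GRCm38 and mm10, without saying what each was used for. The deposited gene tables held 1 level per gene and library, read as FPKM from the values because the file headers name no unit. No read totals were at hand, so depth is unknown and levels have no counting interval. Each gene also has, per the file headers, the authors' p-value, q-value and log2 of IP over input, from a test not given in the sources used here. The deposited log2 ratio equals log2 of the IP level plus 0.01 over the input level plus 0.01, and ratios were computed that way. The authors' deposited peak lists hold, for 1 library each and per strand, a display score, a fold ratio at the summit, and −log10 p-values and q-values. Score was not used, and the −log10 columns served only for filtering and ranking. Whether peaks were called against the input is not stated in the labels or files.

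Peak overlap was taken at 1 base or more on the same strand, and a summit in several coding genes was given to 1 of them. With 1 library a group no test was run: shares have exact 95% Clopper-Pearson intervals and medians order-statistic intervals. The members and the 23 gene lists were chosen with earlier results of these data known. Named genes were Lin28b, those of the 15 highest folds, the 15 with the most peaks, those of the 5 widest peaks, the 5 highest and 5 lowest mutant ratios among carriers at a level of at least 1, and up to 3 per list, without predicted genes in the ranked parts; 1 gene that the rule names is not reported here. Alternatives were other overlap rules, a shorter mutant list, a −log10 q-value of at least 5, other gene filters, a pseudocount of 1 and ratios centred on the median. Overlap counting was tested on simulated intervals. Python 3.11.15, pandas 2.3.3, numpy 2.4.6, scipy 1.17.1 and matplotlib 3.10.9 were used, with the RefSeq tables of GRCm38.p6 for sequences.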

Additional observations from a re-analysis of the deposited data

How the results depend on the processing

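Of 55 recalculations 40 stayed within the interval of the reported value, or within 1.5 times for a count, and 15 did not. The median position moved from 0.713 to 0.703 where mutant peaks within 500 bases of a wild-type peak were also left out, to 0.728 where an overlap of at least 50% of the mutant peak was needed to remove it, to 0.680 where the mutant list was shortened to as many peaks as the wild-type list has, and to 0.700 at a −log10 q-value of at least 5. The median width moved from 237 to 243 bases with the 50% overlap, 232 with the shortened list and 234 at the stricter q-value, and the median fold from 4.18 to 4.82 with the shortened list and 4.40 at the stricter q-value. The shortened list held 7059 members in 1187 genes, with 19.3% of summits in the last decile. Carriers enriched in the mutant IP were 21.4% with a pseudocount of 1 (3.61% of all coding genes) and 74.0% with ratios centred on the median of all genes, -0.61 (17.6% of all coding genes). Those enriched in the wild-type IP were 5.73% with a pseudocount of 1 (4.25%) and 20.6% centred on the median, -0.29 (12.5%). Carriers with the mutant input at least 2-fold higher were 5.06% with a pseudocount of 1. Restricting to genes whose inputs lie within 2-fold, chosen after seeing the data, left 551 genes with 5 or more peaks against 600. No paired analysis was possible because each group has 1 library and the labels carry no shared replicate numbers. Shares of exons, introns and UTRs and the motif around all summits were not run, since no genome sequence or exon models were used here. Without replicates or read totals, neither the spread between libraries nor the depth behind a missing wild-type peak can be given.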
